A study of Mus musculus and Oryctolagus cuniculus and Sus scrofa with 20 samples.

Results

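The miR-183, miR-96 and miR-182 cluster is a group of 3 microRNA (miRNA) genes that lie close together on one strand of a mammalian chromosome. Its 5p products, miR-183-5p, miR-96-5p and miR-182-5p, were followed across 20 small RNA libraries of male germ cells and testis. A read belonged to a member if it was 18 to 26 nt long and its first 18 nt equalled those of the mouse mature miRNA. The 3 members are 3 of the 1660 mouse miRNA entries counted in this way. They held 227188 of 5129559 miRNA reads in cultured spermatogonial stem cells (SSCs) and 27 of 249761 in adult rat testis, the most and the fewest per miRNA read among the 7 mouse stages and the whole testes.

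The mouse stages, all labelled wild-type C57BL/6, were SSCs in culture, pre-leptotene and leptotene spermatocytes of postnatal day 9, zygotene spermatocytes of day 13, pachytene spermatocytes and round spermatids of day 25, and mature sperm. A second experiment used SSCs of an F1 cross of C57BL/6 and DBA2 taken at day 15, with an actin-EGFP transgene and grown on mouse embryonic fibroblast feeder cells. The protocol gives this F1 source for SSCs in general, so whether the SSCs of the stages were of C57BL/6, as labelled, or of the F1 cross is not settled. It held 2 miR-741 knockout lines, of which one was made by TALEN and the other by CRISPR, and wild-type control SSCs; each knockout line was a picked colony. Whole testes came from wild-type rabbits of day 10, 30, 60, 70, 80, 90, 110 and 180, with an exogenous spike-in added to the RNA, and from adult wild-type pig and rat. Each group is 1 library, so what separates groups is known for these libraries only, with nothing to gauge their spread.

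The members are processed from hairpins in a shared primary transcript in many vertebrates, and they are best known from sensory organs, where photoreceptors and hair cells carry them in abundance. A miRNA pairs with its targets chiefly through the seed, bases 2 to 8 from its 5′ end. A shift of the 5′ end by a single base therefore changes the seed, whereas a change at the 3′ end leaves it as it is. Changes of the miR-96 seed are a known cause of hearing loss in mouse and human.

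The mature sequences below are shown because the seeds set the members apart. They are the mouse entries of RefSeq (GRCm38.p6), 5′ to 3′, with the seed in capitals.
miR-183-5p: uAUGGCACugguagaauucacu
miR-96-5p: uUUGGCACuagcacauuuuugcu
miR-182-5p: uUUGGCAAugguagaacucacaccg
miR-1271-5p: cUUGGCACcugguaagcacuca

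miR-183-5p shared its bases 2 to 8 with no other mouse mature miRNA in the table. It differed from miR-96-5p in the seed by A2U (the base of the first-named miRNA, the position from the 5′ end, the base of the second). miR-96-5p shared its seed with miR-1271-5p alone, and differed from miR-182-5p over the first 8 bases by C8A. Over the whole length the order of likeness was another: miR-183-5p and miR-182-5p were identical at 18 of 22 positions counted from the 5′ end, miR-183-5p and miR-96-5p at 13 of 22, and miR-96-5p and miR-182-5p at 12 of 23. miR-1271-5p had 3 reads in SSCs, 2 in rat testis and 0 in each of the other 18 libraries. Outside rat testis, reads with the miR-96 seed thus came almost wholly from miR-96-5p. In rat testis the 2 reads stood beside 13 of miR-96-5p.

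In mouse (GENCODE vM21, GRCm38) the 3 hairpins lie on the minus strand within 3820 bases of chromosome 6. Mir183 is at chr6:30169668-30169737, Mir96 at chr6:30169446-30169551 and Mir182 at chr6:30165918-30165992. The gap between Mir183 and Mir96 is 116 bases and that between Mir96 and Mir182 is 3453 bases. No other annotated gene overlaps them. The nearest protein-coding genes are Nrf1 (chr6:30047988-30153458, plus strand) and Ube2h (chr6:30211289-30304539, minus strand), and the long noncoding RNA Rncr4 (chr6:30172893-30175126, plus strand) lies between Mir183 and Ube2h. The hairpins follow with both mature arms in capitals, since the 3′ ends of the reads are read against them below.
Mir183: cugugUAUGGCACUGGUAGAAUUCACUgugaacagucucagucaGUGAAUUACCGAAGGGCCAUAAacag
Mir96: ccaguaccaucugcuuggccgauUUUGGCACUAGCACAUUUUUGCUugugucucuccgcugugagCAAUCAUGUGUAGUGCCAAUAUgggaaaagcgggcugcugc
Mir182: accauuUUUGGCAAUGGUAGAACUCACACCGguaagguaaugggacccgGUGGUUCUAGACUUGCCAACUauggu

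Libraries held 597732 (CRISPR line) to 25908109 (mature sperm) reads, of which 196752 to 6087617 were miRNA reads. miRNA reads made up 25.3% to 46.2% of all reads in SSCs and in pre-leptotene to zygotene spermatocytes, but 1.38% at pachytene, with 2.09% in round spermatids, then 13.7% in mature sperm, so the levels at these stages depend on the scale used. The label of the pachytene library was checked with miR-449a-5p and miR-34b-5p, miRNAs of meiotic and postmeiotic germ cells. Their summed level was 131 reads per 1000000 miRNA reads (RPM) in SSCs, 1.81 at pre-leptotene, 4.16 at leptotene and 16.7 at zygotene. It was 5925 at pachytene, with 6718 in round spermatids, then 121 in mature sperm. Intervals given are 95% exact Poisson, Clopper-Pearson or conditional binomial intervals; the reads carry no molecular identifiers, so these cover counting error only.

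The cluster was abundant in every mouse library. miR-183-5p, the member nearest the 5′ end of the cluster, reached 22745 RPM in SSCs, 8242 at pre-leptotene, 11419 at leptotene, 17142 at zygotene and 8554 at pachytene, with 6730 in round spermatids, then 4957 in mature sperm. Per miRNA read it was highest in SSCs, next highest in zygotene spermatocytes, and lowest in mature sperm. Per 1000000 of all reads the lowest stage was pachytene, with 118, beside 680 in mature sperm. By reads it ranked 10 of 721 detected miRNAs in SSCs, 10 of 556 in zygotene spermatocytes and 27 of 425 in mature sperm, among the entries of the RefSeq table alone.

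miR-96-5p, the member with the seed tied to hearing, had 9874 RPM in SSCs, 2072 at pre-leptotene, 2579 at leptotene, 4845 at zygotene and 2279 at pachytene, with 1663 in round spermatids, then 6100 in mature sperm. miR-182-5p, which differs from it by the last base of the seed, had 11671 in SSCs, 2063 at pre-leptotene, 2601 at leptotene, 4919 at zygotene and 1745 at pachytene, with 1400 in round spermatids, then 3069 in mature sperm. Both were lowest in round spermatids and, unlike miR-183-5p, higher in mature sperm than there. In pre-leptotene, leptotene and zygotene spermatocytes miR-96-5p and miR-182-5p did not differ beyond counting error, with miR-96-5p to miR-182-5p read ratios of 1.00, 0.992 and 0.985 whose intervals all included equality.

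**Figure D1:**
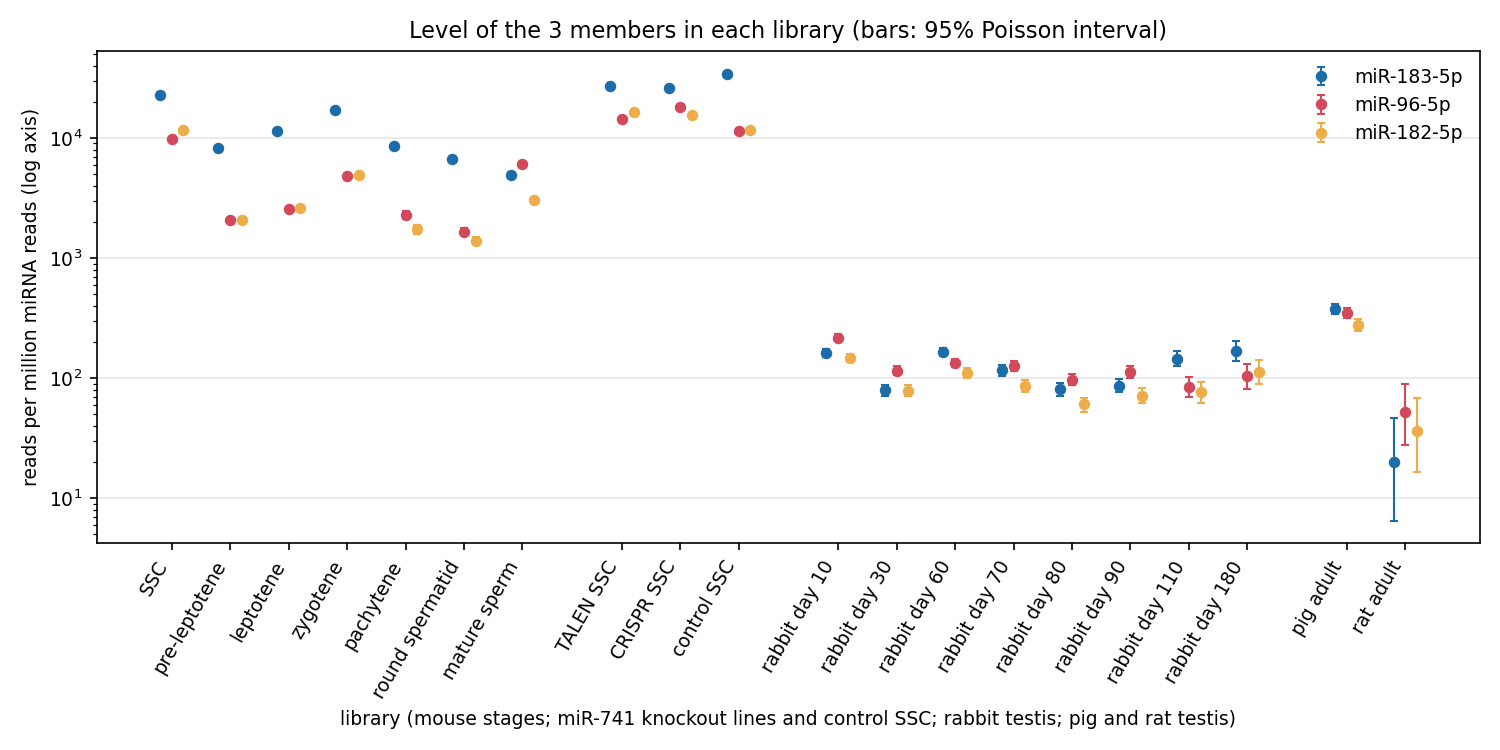
RPM (log axis) of miR-183-5p, miR-96-5p and miR-182-5p in each of the 20 libraries; bars are 95% Poisson intervals and each point is 1 library. The mouse points lie between 1400 and 34142, the rabbit, pig and rat points between 20.02 and 376.

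Summed over the members, the level was 44290 RPM in SSCs, 12377 at pre-leptotene, 16598 at leptotene, 26906 at zygotene and 12578 at pachytene, with 9793 in round spermatids, then 14126 in mature sperm. The order of the stages was thus SSC, zygotene, leptotene, mature sperm, pachytene, pre-leptotene and round spermatid. Neighbours in this order lay outside each other's counting intervals except pachytene (12189 to 12977) and pre-leptotene (12289 to 12466). SSCs were 4.52-fold above round spermatids. On the scale of all reads the highest stage was still SSCs but the lowest was pachytene spermatocytes, 64.5-fold apart.

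The change of each member between consecutive stages was set beside the median log2 change of all miRNAs with at least 100 reads in either library. In pre-leptotene spermatocytes against SSCs, miR-183-5p changed by -1.46, miR-96-5p by -2.25 and miR-182-5p by -2.50, and the median of 333 miRNAs was -2.30. Lower by at least 4-fold were 2 of the 3 members, against 54.1% of miRNAs tested; 0 were higher by that much, against 3.6%. With factors from the trimmed mean of M-values (TMM, which assumes that most miRNAs keep their level) in place of the miRNA total the same changes were 0.31, -0.48 and -0.73, beside a median of -0.53, so the direction of miR-183-5p turned with the scale.

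In leptotene against pre-leptotene spermatocytes all 3 members were higher, by 0.47 (miR-183-5p), 0.32 (miR-96-5p) and 0.33 (miR-182-5p) on the log2 scale, where the median of 212 miRNAs was -0.04. Of the 212, 18 changed further upward than miR-183-5p, 32 than miR-96-5p and 28 than miR-182-5p. None reached 4-fold, against 0.472% of miRNAs higher and 0% lower. In zygotene against leptotene spermatocytes the members were again higher, by 0.59, 0.91 and 0.92 in the order miR-183-5p, miR-96-5p and miR-182-5p, beside a median of 0.71 over 239 miRNAs, with none past 4-fold against 11.3% higher and 0% lower. The differences at zygotene lay between -0.12 and 0.21 from that median on the log2 scale, and with TMM factors miR-183-5p stood at -0.11 beside a median of 0.01. The Sertoli or gonadal list (miR-202-5p and miR-202-3p) summed to 153 RPM at leptotene, 3391 at zygotene and 465 at pachytene. The feeder or stromal list moved less, at 8773, 9747 and 9888 in the same order. The part of somatic cells in the zygotene values was not tested.

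The pachytene library set the members below the median. In pachytene against zygotene spermatocytes miR-183-5p changed by -1.003 (interval -1.06 to -0.95), miR-96-5p by -1.09 (-1.20 to -0.98) and miR-182-5p by -1.50 (-1.62 to -1.37), where the median of 247 miRNAs was -0.13. Of those 247, 72 changed further downward than miR-183-5p, 64 than miR-96-5p and 46 than miR-182-5p. No member passed 4-fold, against 13.4% of miRNAs lower and 9.31% higher. With TMM factors the changes were -1.22, -1.30 and -1.71, beside a median of -0.35. These values rest on 2687 reads of miR-183-5p, 716 of miR-96-5p and 548 of miR-182-5p in the pachytene library.

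In round spermatids against pachytene spermatocytes the members changed by -0.35, -0.46 and -0.32 for miR-183-5p, miR-96-5p and miR-182-5p, beside a median of -0.37 over 129 miRNAs. None passed 4-fold, against 13.2% lower and 5.43% higher. The intervals of the 3 members overlapped, from -0.60 to -0.31 for miR-96-5p and from -0.48 to -0.15 for miR-182-5p. The direction turned with the scale: with TMM factors the changes were 0.06, -0.05 and 0.09 (median 0.03), and scaled to all reads 0.25, 0.14 and 0.28 (median 0.22), for miR-183-5p, miR-96-5p and miR-182-5p.

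The members parted at the last step. In mature sperm against round spermatids miR-96-5p was higher by 1.88 on the log2 scale (1.78 to 1.98) and miR-182-5p by 1.13 (1.02 to 1.24), while miR-183-5p changed by -0.44 (-0.50 to -0.39). The median of 204 miRNAs was -0.19. No member passed 4-fold by the miRNA total, against 22.5% higher and 20.1% lower; with TMM factors miR-96-5p did, at 2.36, as did 25% of miRNAs, and the change of miR-183-5p was then 0.05 beside a median of 0.30. Scaled to all reads the changes were 2.27 (miR-183-5p), 4.59 (miR-96-5p) and 3.85 (miR-182-5p) beside a median of 2.53. miR-183-5p lay below the median and the other members above it. A change of scale shifts all miRNAs of a step by the same amount, so the 3 scales are not separate tests of this. At the same step the epithelial list (7 of 8 listed miRNAs in the table, among them miR-200a-3p, miR-200b-3p and miR-205-5p) summed to 16641 RPM in mature sperm, with none at 0, and to 323 in round spermatids, with miR-205-5p at 0. The blood cell list (3 of 5 in the table) summed to 1274 in mature sperm, with none at 0. Its sum of 44.7 in round spermatids was all miR-142a-3p, with miR-451a and miR-223-3p at 0. These blood cell markers did not move together. miR-451a stood at 1003 and miR-223-3p at 266 in mature sperm, whereas miR-142a-3p was lower there, at 5.91. The part of such cells in the change of miR-96-5p and miR-182-5p was not tested, and fewer cells of a type cannot be told apart from less RNA per cell.

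**Figure D2:**
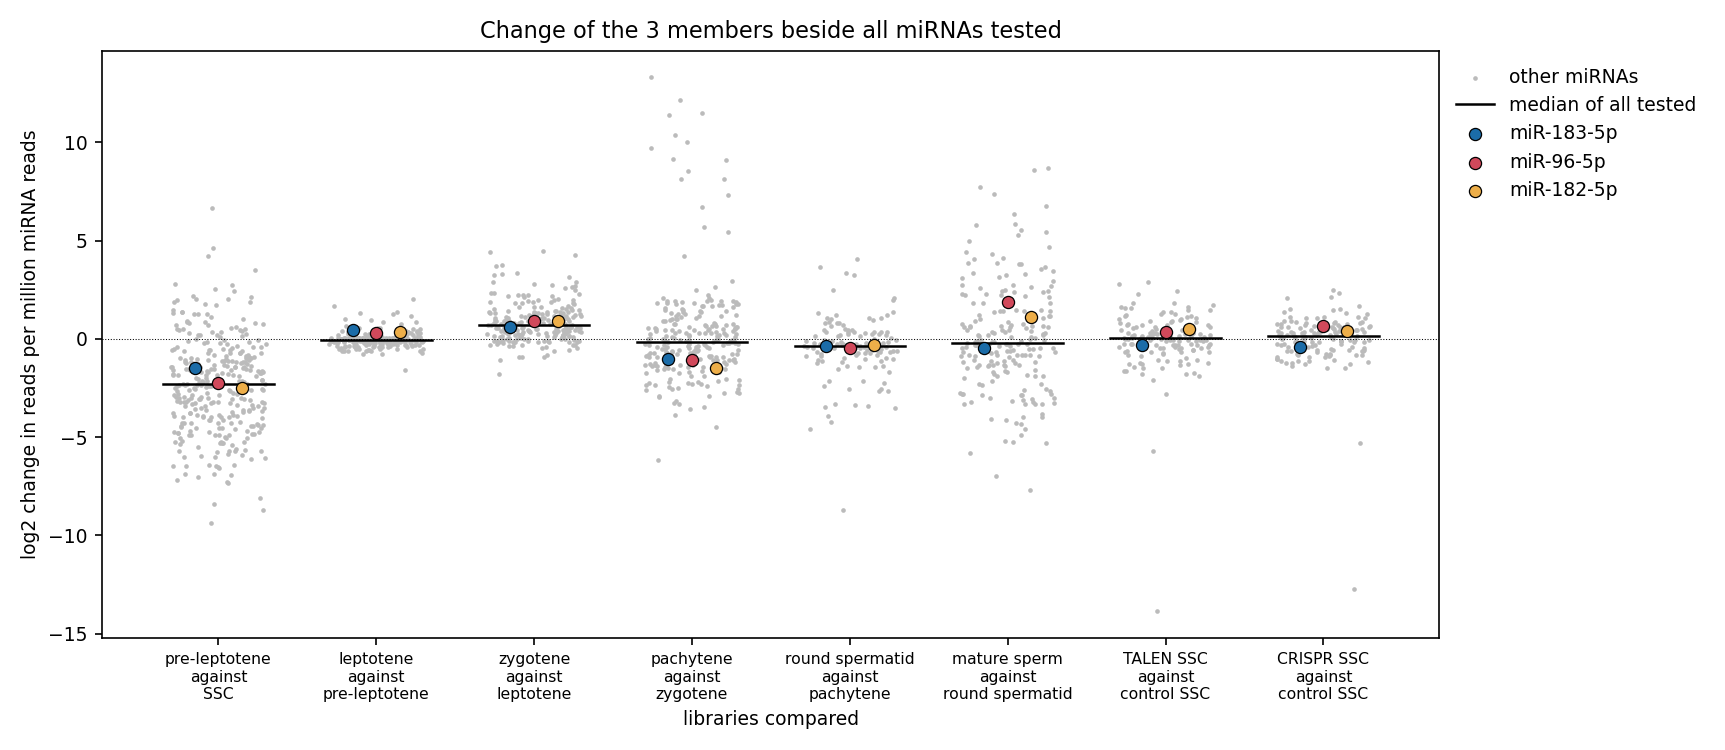
Log2 change in RPM of the 3 members (coloured) and of all other miRNAs with at least 100 reads (grey) for each step between mouse stages and for each miR-741 knockout line against control SSCs; black bars are medians of all miRNAs tested. miR-183-5p lies 0.84 above the median at pre-leptotene and 0.51 above it at leptotene; all 3 members lie below it at pachytene (-1.003 to -1.50 against -0.13), and spread from -0.44 to 1.88 in mature sperm against round spermatids.

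The make-up of the cluster needs no scale between libraries, since the members are compared within a library. miR-183-5p made up 51.4% of the cluster's reads in SSCs, 66.6% at pre-leptotene, 68.8% at leptotene, 63.7% at zygotene and 68.0% at pachytene, with 68.7% in round spermatids, then 35.1% in mature sperm. The share was within 63.7% to 68.8% in all 5 stages from pre-leptotene spermatocytes to round spermatids, although the summed level differed among them. Mature sperm stood apart from these stages: miR-96-5p made up 43.2% (42.7% to 43.6%) there, against 16.98% (15.9% to 18.1%) in round spermatids. The ratio of miR-96-5p to miR-183-5p reads was 1.23 (1.21 to 1.26) in mature sperm and 0.247 (0.229 to 0.267) in round spermatids, and that of miR-182-5p to miR-183-5p was 0.619 in mature sperm and 0.208 in round spermatids. When reads starting 1 base earlier or later were counted too, the ratio of miR-96-5p to miR-183-5p was 0.895 (0.879 to 0.912) in mature sperm and 0.185 (0.171 to 0.199) in round spermatids. Which member led in mature sperm therefore depended on the starts counted, with 24273 reads of miR-183-5p and 21726 of miR-96-5p by the wider rule. The difference between the stages was seen by both of these rules. It was much smaller when the whole mature sequence had to be present. miR-96-5p and miR-183-5p then had 1863 and 16315 reads in mature sperm, and 271 and 3154 in round spermatids.

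**Figure D3:**
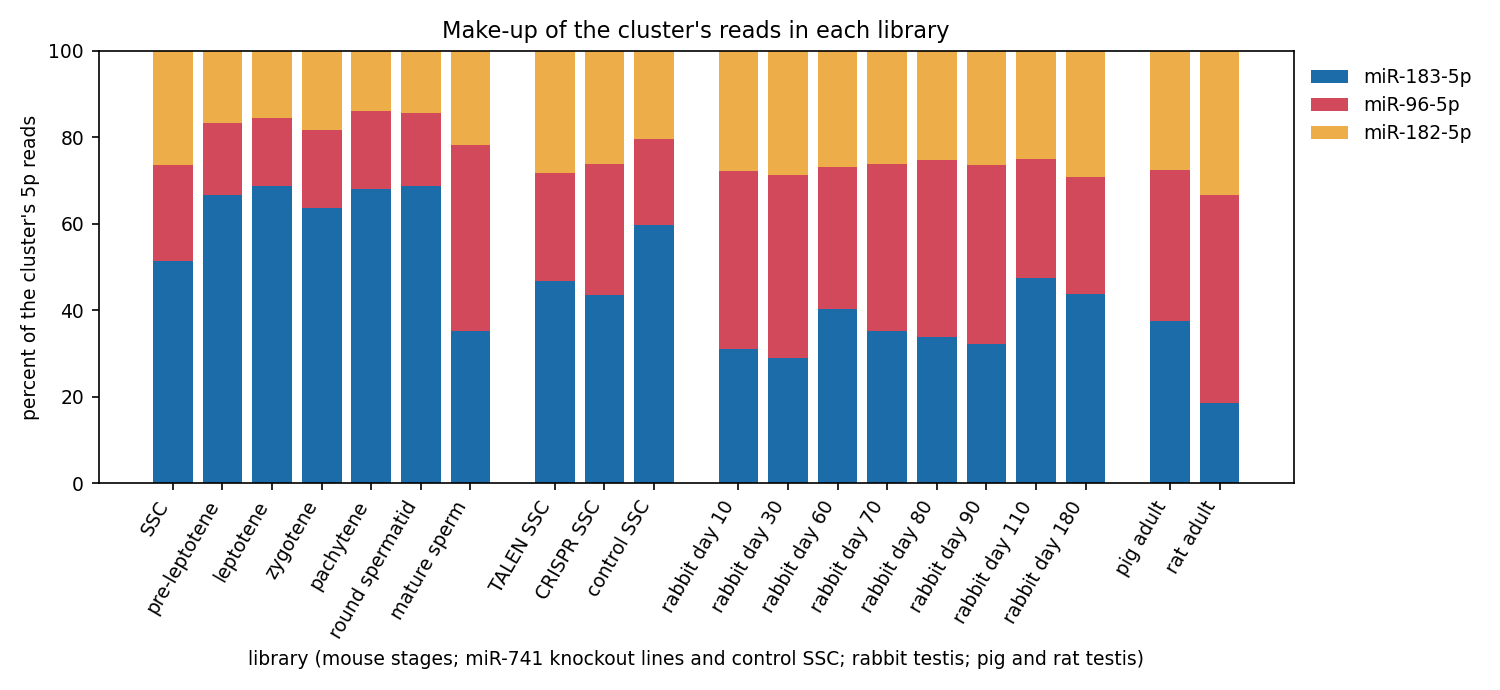
Percent of the cluster's 5p reads that belonged to miR-183-5p, miR-96-5p and miR-182-5p in each library. miR-183-5p holds 63.7% to 68.8% from pre-leptotene spermatocytes to round spermatids and 35.1% in mature sperm.

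miR-183-5p had the most reads of the 3 members in 13 of the 20 libraries and miR-96-5p in the other 7, which were mature sperm, rat testis and the rabbit testes of day 10, 30, 70, 80 and 90. miR-182-5p led in 0. When the whole mature sequence had to be present, miR-183-5p led in 19 libraries and miR-96-5p in 0, with a tie in rat testis; in mature sperm it then had 16315 reads and miR-96-5p 1863. With starts within 1 base, miR-96-5p led in 4 libraries, rat testis and the rabbit testes of day 10, 30 and 90, and no longer in mature sperm. Several leads lay within counting error. By the first rule the ratio of miR-96-5p to miR-183-5p reads included equality in rabbit day 70 (0.955 to 1.25) and rat (0.870 to 9.31). With starts within 1 base it did so in rabbit day 10 (0.924 to 1.12), day 90 (0.880 to 1.21) and rat (0.571 to 3.83).

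The members differed in the 3′ ends of their reads. For miR-96-5p the most abundant reads in SSCs, round spermatids and mature sperm are shown, with bases unlike the mature sequence in capitals.
miR-96-5p, SSC and full length: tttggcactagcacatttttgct
miR-96-5p, round spermatid: tttggcactagcacatttttgc
miR-96-5p, mature sperm: tttggcactagcacatttttg
miR-96-5p, mature sperm with an added base: tttggcactagcacatttttgA

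The full-length read of 23 nt held 61.3% of the member's reads in SSCs. The 22-nt read led in round spermatids with 43.4%, and the 21-nt read led in mature sperm with 69.4%. By length alone, 21-nt reads of miR-96-5p made up 7.71% in SSCs, 17.7% at pre-leptotene, 17.7% at leptotene, 14.5% at zygotene and 9.22% at pachytene, with 15.8% in round spermatids, then 69.5% in mature sperm. The highest share in the other mouse stages was 17.7%; in whole testes it reached 32.8% (28.6% to 37.2%), in the rabbit of day 30. Reads of 23 nt made up 9.31% in mature sperm, against 33.6% in round spermatids.

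The mean length of miR-96-5p was 21.4 nt in mature sperm and 22.2 nt in round spermatids, a difference of -0.791 nt. For miR-182-5p it was 23.3 nt in mature sperm and 24.4 nt in round spermatids, a difference of -1.15 nt, and for miR-183-5p 22.5 nt in both, a difference of 0.0638 nt. The median difference over 105 miRNAs with at least 100 reads in both libraries was -0.110 nt; 6 of them were shortened more than miR-96-5p and 3 more than miR-182-5p. The near-equal means of miR-183-5p hide a wider spread of lengths in mature sperm. Its 22-nt reads made up 48.9% (48.2% to 49.7%) in mature sperm and 65.3% (63.6% to 66.9%) in round spermatids, its 23-nt reads 23.2% and 10.9%, and its 18-nt reads 1.91% and 0.121%, in the same order.

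**Figure D4:**
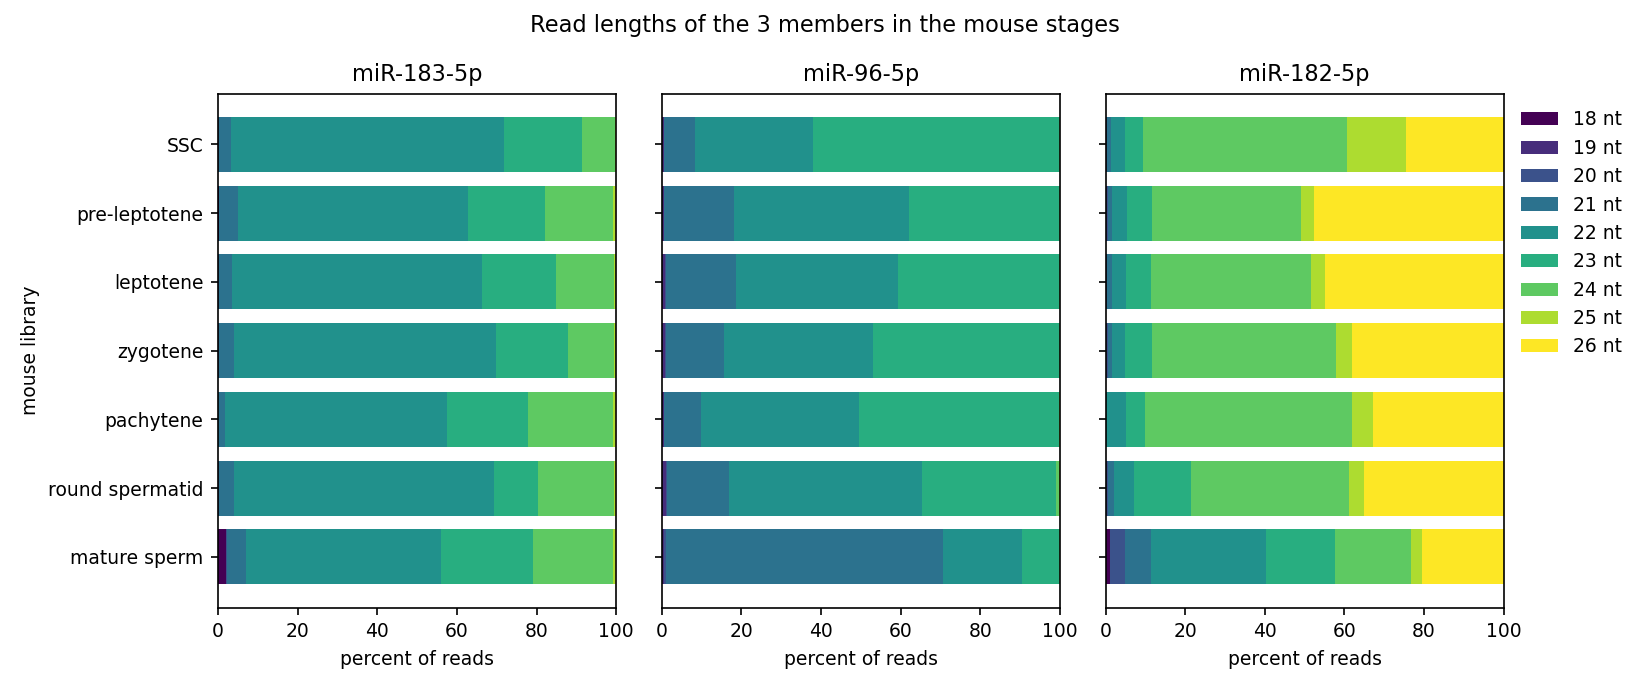
Percent of the reads of each member by read length, 18 to 26 nt, in the 7 mouse stages. The 21-nt share of miR-96-5p is 69.5% in mature sperm and 7.71% to 17.7% in the other stages, and the 26-nt share of miR-182-5p is 47.6% in pre-leptotene spermatocytes and 24.6% in SSCs.

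miR-182-5p had a different 3′ form in early spermatocytes. The reads below were its most abundant in each library named, and the capital marks a base past the mature sequence that the hairpin does not have there (the hairpin goes on with g).
miR-182-5p, SSC: tttggcaatggtagaactcacacc
miR-182-5p, pre-leptotene: tttggcaatggtagaactcacaccgT
miR-182-5p, mature sperm: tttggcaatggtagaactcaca

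The 24-nt read held 36.8% of the member's reads in pre-leptotene spermatocytes and 50.6% in SSCs. The 26-nt read with the added T held 46.6% in pre-leptotene spermatocytes and 21.8% in SSCs. Counting every read that ends in T bases beyond the hairpin sequence, such reads made up 22.7% of miR-182-5p in SSCs, 47.7% at pre-leptotene, 44.7% at leptotene, 37.1% at zygotene and 34.3% at pachytene, with 38.5% in round spermatids, then 21.4% in mature sperm. All 5 stages from pre-leptotene spermatocytes to round spermatids lay above both SSCs and mature sperm. In the second experiment the share was 9.51% in the TALEN line, 14.1% in the CRISPR line and 15.8% in control SSCs.

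Added bases were rarer in the other members. Reads of miR-183-5p ending in T bases beyond the hairpin made up 2.27% in round spermatids and 0.249% in SSCs. Those ending in added A bases made up 3.56% in SSCs and 2.08% to 3.36% in the stages from pre-leptotene to pachytene. They made up 1.15% in round spermatids, the lowest stage, and 4.16% in mature sperm, the highest. Added A bases on miR-96-5p made up 0.498% in SSCs, 4.77% (3.41% to 6.46%) in round spermatids and 9.54% (9.15% to 9.93%) in mature sperm. Of the miR-182-5p reads in mature sperm 0.568% had added A bases, so the A ends there were mainly those of miR-96-5p and miR-183-5p.

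The 5′ end, which sets the seed, varied in miR-183-5p. Its annotated form and the form that starts a base later are shown with bases 2 to 8 of each in capitals.
miR-183-5p, annotated start: tATGGCACtggtagaattcact
miR-183-5p, start 1 base later: aTGGCACTggtagaattcact

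The later start gives the seed UGGCACU, which no mouse mature miRNA of the table has. Reads with this start made up 10.5% of miR-183-5p in SSCs, 17.99% at pre-leptotene, 16.2% at leptotene, 15.4% at zygotene and 19.2% at pachytene, with 25.3% in round spermatids, then 27.4% in mature sperm (denominator: annotated start, 1 base later and 1 base earlier). The shares in round spermatids (24.0% to 26.6%) and mature sperm (26.8% to 27.9%) were the highest of the stages and did not overlap; SSCs were the lowest. In round spermatids 3 of 114 miRNAs had a higher share of reads starting a base later than miR-183-5p, and the median of the 114 was 0.00536%. The start stood out less in SSCs, where 38 of 320 miRNAs had a higher share and the median was 0.220%. In mature sperm 8 of 195 had a higher share.

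The same start was found outside the mouse stages. It made up 9.95% in the TALEN line, 10.6% in the CRISPR line and 9.94% in control SSCs, intervals that overlapped each other. It made up 14.9% to 26.95% in the 8 rabbit testes, 32.6% (29.1% to 36.3%) in pig testis, and 4 of 9 reads in rat testis. By contrast miR-96-5p and miR-182-5p had at most 0.180% and 0.577% of such reads in the mouse stages. Reads starting 1 base earlier made up 0.0226% to 0.180% of miR-183-5p in those stages.

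Few reads came from the 3p arms of the hairpins, the strand that is mostly discarded. miR-182-3p made up 3.35% (3.21% to 3.49%) of the reads of its hairpin in SSCs, 0.127% at pre-leptotene, 0.239% at leptotene, 0.252% at zygotene and 0.182% (1 read) at pachytene, with 0 of 689 reads in round spermatids, then 0.119% in mature sperm. miR-96-3p made up 0.947% in SSCs and at most 0.153% in any other stage. miR-183-3p had 27 reads in SSCs and 0 in each later stage. The 3 libraries of the second experiment were like the first SSC library in this: miR-182-3p made up 1.66% in the TALEN line, 2.16% in the CRISPR line and 2.01% in control SSCs, and miR-96-3p 0.669%, 0.805% and 0.896% in the same order. A 3p share over 1% for miR-182 was thus seen in the 4 SSC libraries and in the rabbit testis of day 180, where it was 1 read of 77.

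The comparison of the miR-741 knockout lines with control SSCs asks what else changes when this X-linked miRNA is removed. miR-741-3p itself had 3 reads in the TALEN line, 5 in the CRISPR line and 80096 in control SSCs. miR-183-5p had 27200 RPM in the TALEN line and 26104 in the CRISPR line, against 34142 in control SSCs. miR-96-5p had 14482 in the TALEN line and 18155 in the CRISPR line, against 11335 in control SSCs. miR-182-5p had 16405 in the TALEN line and 15639 in the CRISPR line, against 11653 in control SSCs. The summed level was 58087 and 59898 in the lines, against 57130 in control SSCs.

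miR-183-5p was thus lower in both lines and the other members higher, while the sum moved by 0.02 and 0.07 on the log2 scale. The log2 changes were -0.33 (TALEN) and -0.39 (CRISPR) for miR-183-5p, 0.35 and 0.68 for miR-96-5p, and 0.49 and 0.42 for miR-182-5p. The median of 150 miRNAs was 0.03 in the TALEN line and 0.17 in the CRISPR line. No member passed 2-fold in both lines in either direction, against 9.33% of miRNAs higher and 9.33% lower. Both lines share 1 control library, so they are not independent of each other. The miRNA total of control SSCs, 468367 reads, includes the 80096 reads of miR-741-3p. Their near absence from the lines raises the RPM of all other miRNAs there. With TMM factors the changes (TALEN, then CRISPR) were -0.40 and -0.56 for miR-183-5p and 0.28 and 0.51 for miR-96-5p. They were 0.42 and 0.25 for miR-182-5p, and -0.05 and -0.10 for the sum.

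Within the cluster the ratio of miR-96-5p to miR-183-5p reads was 0.532 (0.512 to 0.554) in the TALEN line and 0.695 (0.666 to 0.726) in the CRISPR line, against 0.332 (0.322 to 0.342) in control SSCs. That of miR-182-5p to miR-183-5p was 0.603 in the TALEN line and 0.599 in the CRISPR line, against 0.341 in control SSCs. The other wild-type SSC library, from the mouse stages, had ratios of 0.434 and 0.513, between those of the control and of the lines. The wild-type cultures differed by 0.59 on the log2 scale in miR-183-5p (control SSCs over the SSCs of the stages), by 0.20 in miR-96-5p and by -0.00219 in miR-182-5p, cultures whose strain labels differ. The change of miR-183-5p in the lines was smaller in size than its own difference between the wild-type cultures. Those of miR-96-5p and miR-182-5p were each larger than the same member's difference between these cultures. The feeder or stromal list (4 of 6 listed miRNAs in the table, none at 0) made up 4.13% of miRNA reads in the TALEN line, 5.43% in the CRISPR line, 5.94% in control SSCs and 6.91% in the SSCs of the stages. Most of each sum was miR-21a-5p, at 35635 RPM (TALEN), 46846 (CRISPR) and 43003 (control SSCs). In the same order miR-199a-3p stood at 3183, 3990 and 9759, and miR-199a-5p at 2298, 3380 and 6407. miR-214-3p stood at 164, 112 and 207. The part of feeder or stromal cells in the values of the members was not tested.

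In rabbit testis the cluster was scarce at every age. The summed level was 527 RPM at day 10, 274 at day 30, 409 at day 60, 328 at day 70, 238 at day 80, 271 at day 90, 307 at day 110 and 385 at day 180. The day 180 library holds 260 reads of the members and the day 10 library 2122. Whole testis mixes germ cells with somatic cells, and the mouse sequences were used to find the reads. Where levels are shown beside those of the purified mouse cells, no conclusion is therefore drawn from the gap between them.

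miR-183-5p had 163 RPM at day 10, 79.3 at day 30, 165 at day 60, 116 at day 70, 80.5 at day 80, 86.8 at day 90, 145 at day 110 and 169 at day 180. Its order with age did not pass the test, with Spearman's rho of 0.24 over 8 libraries (exact permutation, Benjamini-Hochberg adjusted p = 0.678 over 206 miRNAs). miR-182-5p had 147 at day 10, 78.8 at day 30, 110 at day 60, 85.7 at day 70, 60.4 at day 80, 71.5 at day 90, 76.7 at day 110 and 113 at day 180, with rho of -0.33 (exact permutation, adjusted p = 0.554).

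miR-96-5p had 217 at day 10, 116 at day 30, 134 at day 60, 127 at day 70, 97.1 at day 80, 112 at day 90, 84.9 at day 110 and 104 at day 180. Its rho was -0.81 (two-sided exact permutation p = 0.0218, adjusted p = 0.0606), which missed the threshold of 0.05. Pearson's r of log2(level + 1) with log2 age was -0.01 for miR-183-5p, -0.85 for miR-96-5p (exact permutation, adjusted p = 0.0618) and -0.47 for miR-182-5p. Without the ages farthest from the median age, day 10 and day 180, r was 0.33, -0.52 and -0.27 and rho was 0.26, -0.77 and -0.60 for the members in that order, so rho of miR-96-5p changed little and r more. With 0 of 3 members called, 16% of the miRNAs tested rose and 17% fell with age. Scaled to all reads, each member fell, with rho of -0.93 for miR-183-5p, -0.93 for miR-96-5p and -0.90 for miR-182-5p (exact permutation, adjusted p at most 0.0109); on this scale 58.3% of the 206 miRNAs fell and 2.91% rose.

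The composition of the testis moved with age too. miRNA reads made up 7.02% of all reads at day 180 and 53.3% at day 10, and miR-449a-5p with miR-34b-5p summed to 21.9 RPM at day 10, 184 at day 90, 7034 at day 110 and 9791 at day 180. The ratio of miR-96-5p to miR-183-5p reads was 1.33 at day 10, 1.46 at day 30, 0.813 at day 60, 1.09 at day 70, 1.21 at day 80, 1.30 at day 90, 0.585 at day 110 and 0.614 at day 180. Day 110 (0.460 to 0.740) and day 180 (0.449 to 0.834) lay below the intervals of all other ages but day 60 (0.727 to 0.910). The part of cell composition in this was not tested.

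miR-182-5p carried a mark of species at its 3′ end. The most abundant read in rabbit testis of day 10 and in pig testis differed from the mouse mature sequence by C24T (mouse base first, position from the 5′ end), shown in capitals, past the 18 nt used for matching.
miR-182-5p, mouse SSC: tttggcaatggtagaactcacacc
miR-182-5p, rabbit day 10 and pig: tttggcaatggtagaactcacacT

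Of the reads that reached base 24, 96.8% to 99.7% had C in the 10 mouse libraries, as had 6 of 6 in rat testis. Reads longer than 26 nt, which the levels of the members leave out, are included in these shares and in the levels of each form. In pig testis 93.9% had T and 2.30% (0.848% to 4.94%) had C. In rabbit testis T made up 62.2% at day 180 and 92.3% at day 10. The share with C was 7.27% at day 10, 10.8% at day 30, 7.32% at day 60, 19.0% at day 70, 18.2% at day 80, 21.3% at day 90, 37.9% at day 110 and 37.8% at day 180. The intervals of day 110 (27.7% to 49.0%) and day 180 (26.8% to 49.9%) lay above those of day 10 to day 80.

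How each form moved with age depended on the scale. Reads with C numbered 2.50 to 7.03 per 1000000 of all reads over the 8 ages, 2.91 at day 180 and 4.90 at day 10. Reads with T numbered 62.2 per 1000000 of all reads at day 10, 30.0 at day 30, 41.7 at day 60, 29.6 at day 70, 15.6 at day 80, 16.3 at day 90, 4.09 at day 110 and 4.78 at day 180. Per miRNA read, C stood at 41.5 RPM at day 180 and 9.19 at day 10, with a range of 6.35 to 41.5 over the ages, and T at 68.2 at day 180 and 117 at day 10, with a range of 35.9 to 117. At day 180 these are 28 reads with C and 46 with T. Where the reads with C came from was not tested. With only the T reads counted, rho of miR-182-5p with age was -0.48 (exact permutation, adjusted p = 0.36), against -0.33 with all its reads.

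**Figure D5:**
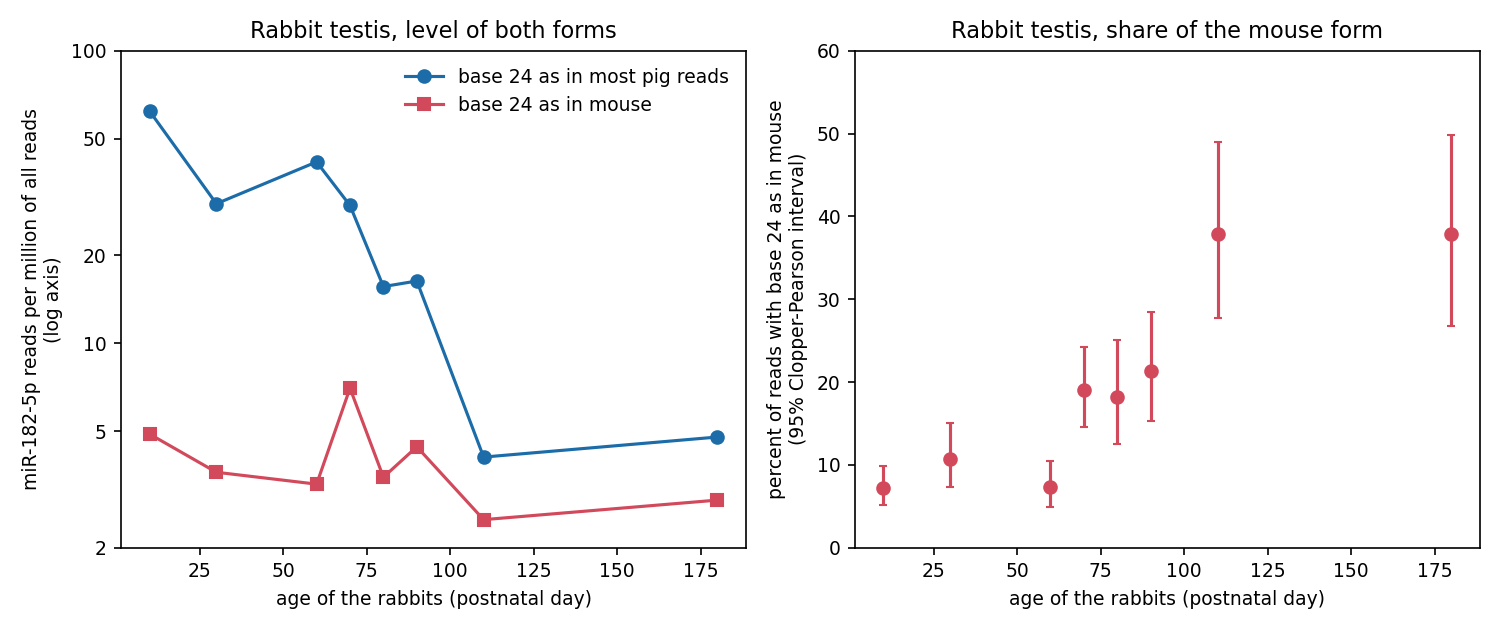
Rabbit testis, miR-182-5p by the base at position 24 against age in postnatal days: left, reads per 1000000 of all reads (log axis) with the base of most pig reads and with the base of mouse; right, percent with the base of mouse, with 95% Clopper-Pearson intervals. The form of most pig reads stands at 4.78 at day 180, against 62.2 at day 10, and the mouse form lies between 2.50 and 7.03; per miRNA read the mouse form stands at 41.5 at day 180, against 9.19 at day 10.

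Pig testis held 376 RPM of miR-183-5p (343 to 413), 349 of miR-96-5p (317 to 384) and 278 of miR-182-5p (249 to 309). The members ranked 67, 68 and 71 of 297 detected miRNAs there, and miR-183-5p and miR-96-5p did not differ beyond counting error (ratio of miR-96-5p to miR-183-5p reads 0.927, 0.810 to 1.06). Rat testis had 5 reads of miR-183-5p, 13 of miR-96-5p and 9 of miR-182-5p, or 20.02, 52.0 and 36.0 RPM. Their order was not detectable at this depth, since the ratio of miR-96-5p to miR-183-5p reads was 2.60 with an interval of 0.870 to 9.31.

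Across the 7 mouse stages the level profiles of miR-96-5p and miR-182-5p were most alike, with Pearson's r of 0.92 on the log2(level + 1) scale. miR-183-5p had r of 0.79 with miR-182-5p and 0.51 with miR-96-5p. Among 357 other miRNAs with at least 100 reads in any stage, the 5 closest to the summed level of the members were miR-26b-3p (r = 0.97), miR-344-3p (0.97), miR-450b-5p (0.96), the shared entry of miR-199a-3p and miR-199b-3p (0.95) and miR-431-5p (0.95). These describe 7 libraries that share their scaling. Some of these miRNAs were scarce outside SSCs. miR-26b-3p stood at 103 RPM in SSCs and at most 10.8 in the other stages, and miR-344-3p at 28.5 and at most 3.61. miR-431-5p stood at 57.7 in SSCs and at most 4.06 elsewhere. In round spermatids each of them was at 0. All 5 had their highest level in SSCs; miR-199a-3p and miR-199b-3p, which are marks of fibroblast-like cells, stood at 9094 RPM in SSCs, 392 at pre-leptotene, 392 at leptotene, 991 at zygotene and 185 at pachytene, with 159 in round spermatids, then 557 in mature sperm. The feeder or stromal list summed to 69110 in SSCs and to 5466 to 11335 in the later stages; its part in the high level of the members in SSCs was not tested.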

How the data were processed

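Small RNA libraries were made from total RNA and sequenced on an Illumina instrument, per the labels' protocols. What the authors deposited is a file per library that pairs every distinct read with its raw, unscaled read count. Bowtie and 1 genome build per species (GRCm38 for mouse) are named in the submitters' processing notes; trimming is not given in the sources used here. The lists were used as sequences, with no alignment.

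Reads of 18 to 26 nt whose first 18 nt equalled a mouse mature miRNA of RefSeq (1672 names in 1660 entries) were miRNA reads; that table holds 25 of the 33 marker miRNAs listed, so totals, RPM and ranks cover its entries alone, and hairpin reads numbered 1.01 to 1.36 per miRNA read in the mouse libraries and 1.63 in rat; the deposited counts were summed and given per 1000000 miRNA reads. Rabbit, pig and rat reads were matched to the same mouse sequences. No count model was fitted, since each group has 1 library. Between stages a change counts at 4-fold, and in the knockout lines at 2-fold in both, among miRNAs with at least 100 reads in a compared library; a count of 0 is set to 3. Rabbit trends use all 40320 orders of the ages. Nothing in the labels says how many animals a library came from. Levels were also scaled by all reads, by reads within 2202 GENCODE vM21 hairpins, or by TMM (edgeR 4.0.16, R 4.3.3); other steps used Python 3.11.15 with numpy 2.4.6, pandas 2.3.3 and scipy 1.17.1. The fold rule and the trend test were tested on simulated data. Named are the members, their 3p arms, miRNAs that share their seed, the 5 closest profiles and marker lists of other cell types. The members and lists were chosen with earlier results of these data known.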

Additional observations from a re-analysis of the deposited data

Results flagged for a closer look

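In pig testis 15.0% of the reads that start as miR-182-5p were longer than 26 nt, outside the lengths counted (59 reads beside 335 within them), where a count of 3 would be 0.761%. It was noted because it lies in reads that the levels and lengths of the members did not use. The comparison of the mouse form of miR-182-5p with the form of most pig reads did include reads this long. In the other libraries with reads of this kind the share for miR-182-5p was 0.426% (rabbit day 60) to 7.32% (rabbit day 180, 6 reads). miR-183-5p and miR-96-5p had 0 such reads in pig testis. The cause was not tested.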

How the results depend on the processing

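Members lower by 4-fold in pre-leptotene spermatocytes against SSCs numbered 2, but 0 scaled to all reads (41.1% of all miRNAs) and 0 with TMM factors (27.9%). In pachytene against zygotene spermatocytes 0 were lower by 4-fold, but 3 scaled to all reads (91.9% of all miRNAs) and 3 at 2-fold (29.6%). In mature sperm against round spermatids 0 were higher, but 3 scaled to all reads (61.8%), 2 at 2-fold (31.4%), and 1 with TMM factors (25%), with 1 substitution allowed (24.1%), or scaled to hairpin reads (25%). In rabbit 0 members were called, but 3 falling scaled to all reads (58.3% of all miRNAs; miR-183-5p then at rho -0.93) and 1, miR-96-5p, with TMM factors or with 1 substitution (adjusted p 0.0374 and 0.0266, with 16% and 18.8% falling); over all alternatives its adjusted p ran from 0.00686 to 0.69 and, with single ages left out, the count stayed 0. miR-96-5p led in 7 libraries, in 0 by the whole mature sequence and in 4 with 5′ starts within 1 base, mature sperm no longer among them. Some of these leads lay within counting error. The fold of SSCs over the lowest stage was 4.52, 64.5 scaled to all reads, 3.60 by the whole mature sequence and 5.56 scaled to hairpin reads. The causes were not tested. Of 126 log2 changes between stages under alternatives, 42 were classed as the same and 84 as moved, with 10 differing in sign. Of 42 in the knockout lines, 28 were classed as the same and 14 as moved, with 0 differing in sign. By the whole mature sequence rho of miR-182-5p in rabbit was 0.79, since that form holds the mouse base 24. The hairpin scaling and the T reads of miR-182-5p were chosen after seeing the data. Restricting the total to an earlier list of miRNAs was not run. No paired analysis was possible because each group has 1 library. Rat testis, with 27 reads, and the pachytene and late rabbit libraries limit the precision.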
